A study of Mus musculus with 20 samples.

Results

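Transcript levels in the normal prostate were set side by side in 2 inbred strains of mice, FVB/NJ and BALB/c. The arrays were chosen by strain label alone, which gave the 4 FVB/NJ and the 4 BALB/c arrays, 8 of the 20 arrays of the series; the other 12 arrays held C57BL/6J, 129X1/SvJ and DBA/2 prostates. The FVB/NJ group consisted of wild-type inbred males aged 8 to 9 weeks, bought from the Jackson Laboratory. The BALB/c group consisted of wild-type inbred males of the same age from Charles River, so that strain and supplier cannot be told apart. No mouse carried a transgene and none was treated. RNA of 3 mice was pooled for each array, the dorsal, lateral, ventral and anterior lobes contributing equally, which makes 12 mice per strain and 24 in the comparison. The RNA was amplified and hybridised on a 2-colour cDNA array against 1 common reference made from the RNA of all samples. Pools 1 and 4 of both strains carried the dye Cy3, and pools 2 and 3 carried Cy5. Every value below is a log2 ratio of the sample over that reference: 0 is the level of the reference, and a difference of 1 between strains is a 2-fold change.

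The mouse prostate is a lobed gland whose luminal cells pour enzymes, protease inhibitors, growth factors and small binding proteins into the seminal fluid under the control of androgens. The seminal vesicle lies beside the anterior lobe and makes the Svs proteins, which form the copulatory plug once they are cross-linked by a transglutaminase of the prostate. Inbred strains also differ at the major histocompatibility complex. FVB mice carry haplotype q and BALB/c mice haplotype d, and strains of haplotype q are known to make no alpha chain of the class II molecule E.

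The deposited values covered 11552 array elements, of which 11159 were tested and 5820 genes could be named by an element of their own. Between 2.64% and 2.85% of the elements were missing on each of the 8 arrays. Pools of 1 strain in the same dye correlated at 0.41 to 0.54 across elements, pools of 1 strain in different dyes at -0.04 to 0.36, and pools of different strains at -0.35 to 0.19. The median standard error of a strain difference was 0.13, which depends on the spread between pools of a strain as well as on the number of arrays. The widest spread of ratios belonged to FVB/NJ pool 2, with a median absolute deviation (scaled to an SD) of 0.29, against 0.19 to 0.20 on the other FVB/NJ arrays and 0.18 to 0.25 on the BALB/c arrays.

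A small share of transcripts set the strains apart. With limma and Benjamini-Hochberg adjustment over all elements, 269 elements had an adjusted p under 0.05, which is the meaning of "called" throughout: 127 were higher in FVB/NJ and 142 lower. This is 2.41% of the elements tested, 1.14% higher and 1.27% lower. Among the named genes 142 were called, or 2.44%, of which 67 were higher in FVB/NJ (1.15%) and 75 lower (1.29%). In all 142 the 4 FVB/NJ pools lay wholly on one side of the 4 BALB/c pools, as they did in 520 of the 5820 genes (8.93%). The differences of the called genes, by the element that stands for each gene, lay between 1.34-fold and 13.4-fold (median, 1.83-fold). Of these genes 55 differed by more than 2-fold, 27 higher in FVB/NJ and 28 lower. Since the pools are bulk tissue, fewer cells of a type and less RNA per cell cannot be told apart for any of these genes. With the pool number as a block, 423 elements and 214 named genes (3.68%) were called.

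**Figure D1:**
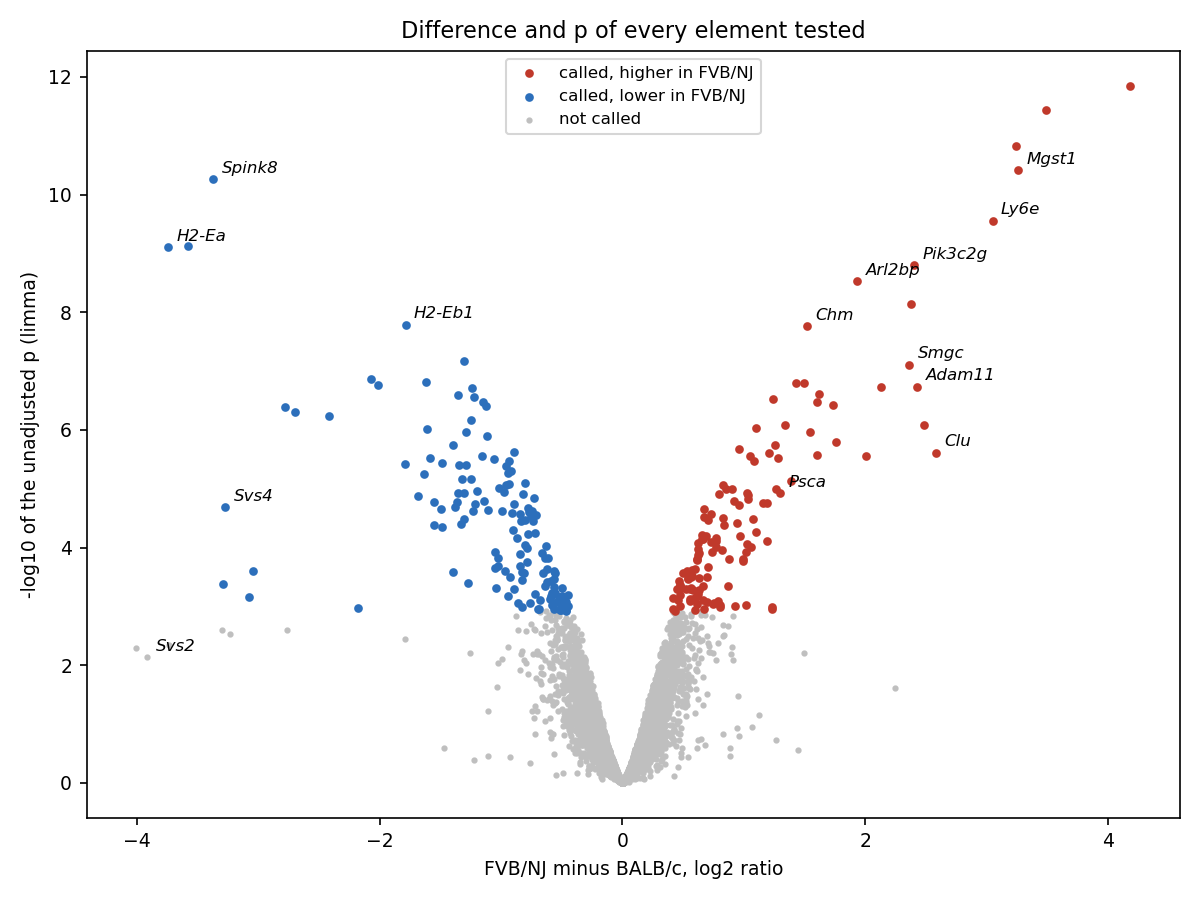
Each point is 1 of 11159 array elements, with the FVB/NJ minus BALB/c difference in log2 ratio on the horizontal axis and -log10 of the unadjusted limma p on the vertical axis; red points were called higher in FVB/NJ, blue points lower, and grey points were not called. Mgst1, Ly6e, H2-Ea and Spink8 lie farthest out with small p. The labelled element of Svs2 has a difference of -3.91 but stays among the grey points, while another element of that gene was called.

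Among the elements that stand for each gene, the largest called rise in FVB/NJ was that of Mgst1, although a second element of Ly6e, given below, rose more. Mgst1 is a membrane-bound glutathione S-transferase that conjugates glutathione to lipid peroxides and other electrophiles. It stood at 0.96, 1.36, 1.15 and 0.86 in FVB/NJ pools 1 to 4, against -2.21, -2.23, -1.96 and -2.30 in BALB/c pools 1 to 4. The groups lay far apart, with every FVB/NJ pool above the reference and every BALB/c pool well below it. The difference was 3.26 ± 0.13 (SE, n = 4 each; 9.57-fold; limma adjusted p = 1.08e-07), and the other 2 elements of the gene, of other accessions, gave 3.24 and 3.49. Its neighbour on chromosome 6 among the genes tested, Pik3c2g, a class II phosphoinositide 3-kinase, rose with it. Pik3c2g was at 0.68, 1.02, 0.72 and 0.94 in FVB/NJ and at -1.75, -1.76, -1.33 and -1.39 in BALB/c pools, 5.28-fold higher in FVB/NJ with an adjusted p of 1.95e-06.

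Genes of glutathione and oxidant defence moved in both directions. Among 29 measured, 2 rose in FVB/NJ (Mgst1 and Gclm), 2 fell (Gpx8 and Gstm2) and 25 were not called. The called share was 13.8%, beside 2.44% of all named genes, and the median difference was 0.05, beside 0.00 over all named genes. Gclm, the regulatory subunit of the first enzyme of glutathione synthesis, averaged 0.31 ± 0.10 in FVB/NJ and -0.22 ± 0.10 in BALB/c (SD, n = 4 each; adjusted p = 0.0159 in limma, and up to 0.0644 without FVB/NJ pool 1 or 4 or BALB/c pool 1 or 2). Gpx8, a peroxidase of the endoplasmic reticulum, went the other way, with -0.62, -0.42, -0.93 and -0.60 in FVB/NJ and 0.48, 0.40, 0.48 and 0.52 in BALB/c pools, a 2.16-fold fall at an adjusted p of 0.000342. Gstm2, a cytosolic glutathione transferase, was 1.74-fold lower in FVB/NJ (adjusted p = 0.00126).

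Of 25 enzymes that handle foreign compounds and steroids, 4 rose in FVB/NJ and 0 fell at an adjusted p under 0.05. The called share was 16.0%, beside 2.44% of all named genes. In 8 of the 25 the fitted difference was below 0, down to -0.44, and the median was 0.10. At an unadjusted p under 0.05 there were 9, and SAM, a permutation-based test with its own false discovery estimate, called 6. The largest called rises were those of Cyp2b9 and Cyp2b10, a pair of cytochromes P450 that follow each other on chromosome 7 among the genes tested. Cyp2b9 was at 0.69, 1.65, 1.06 and 0.50 in FVB/NJ pools, against -1.31, -0.92, -0.67 and -1.23 in BALB/c pools, so the pools did not overlap and FVB/NJ pool 2 was the highest of its group (4.02-fold; limma adjusted p = 0.000595). Cyp2b10 was at 0.85, 1.10, 0.71 and 0.70 in FVB/NJ, against -1.09, -0.72, -1.24 and -0.53 in BALB/c (3.32-fold; limma adjusted p = 0.000139). The 2 transcripts are close relatives, and cDNA elements may bind both, so each difference alone is uncertain. The other called members, the alcohol dehydrogenase Adh1 and the cytochrome Cyp2d9, were 1.67-fold and 1.54-fold higher in FVB/NJ (limma adjusted p = 0.00871 and 0.00652).

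**Figure D2:**
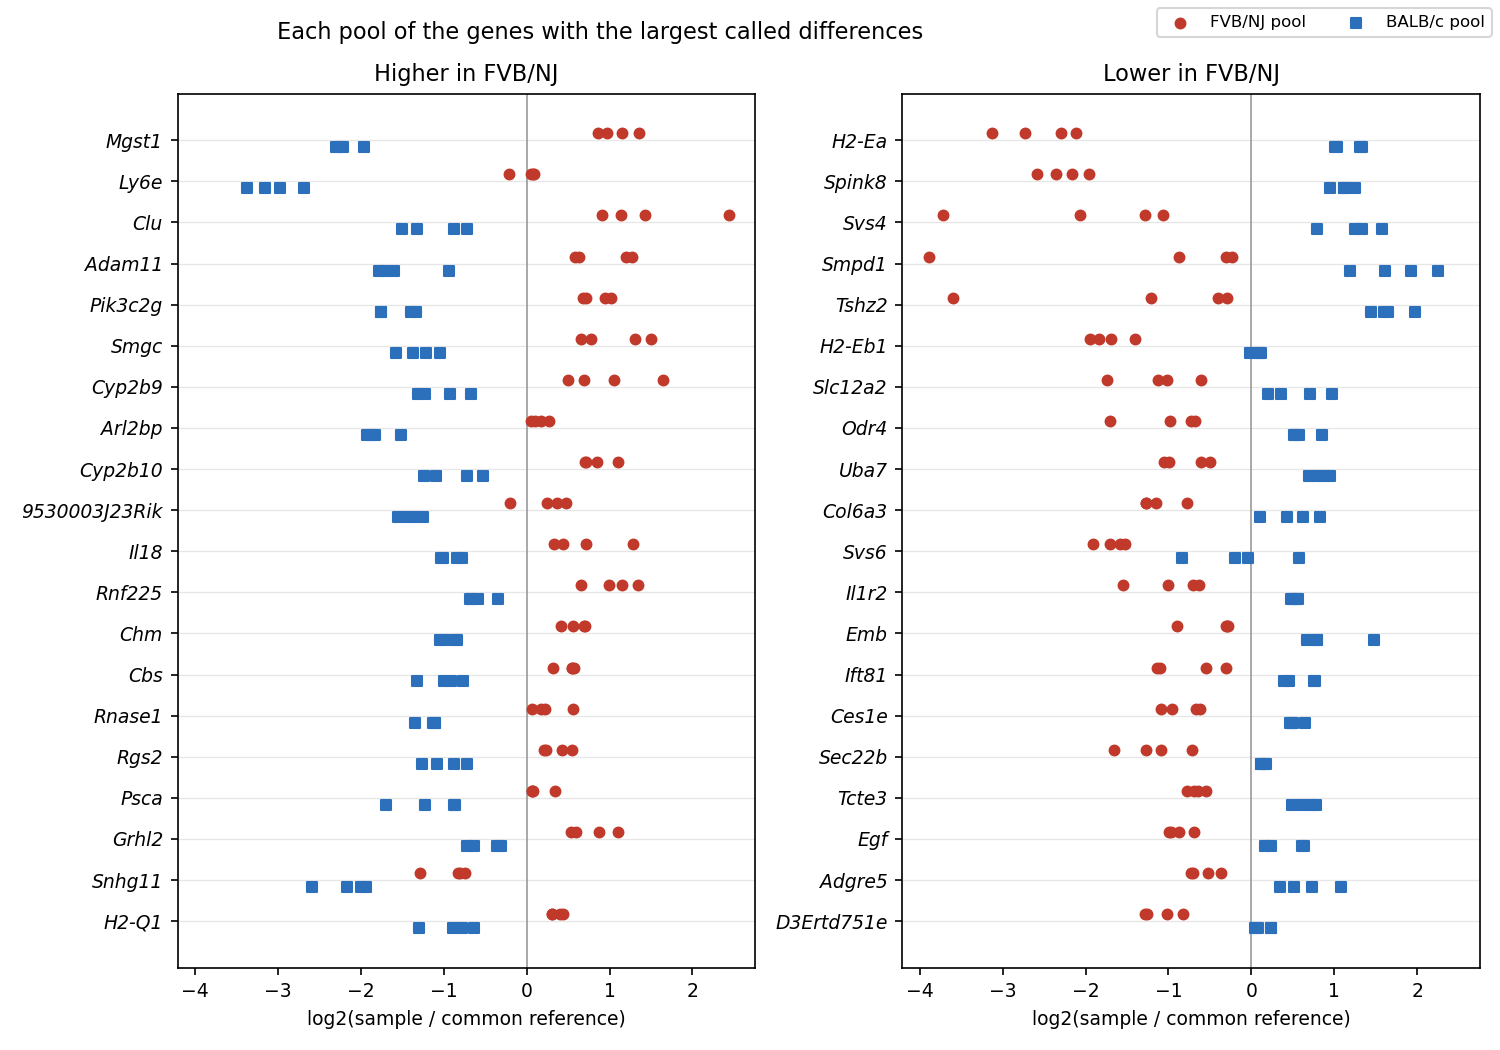
Each point is 1 pool, with its log2 ratio over the common reference on the horizontal axis, for the 20 genes with the largest called rise (left) and the 20 with the largest called fall (right) in FVB/NJ; red circles are FVB/NJ pools and blue squares BALB/c pools. The genes were chosen without overlap of the groups, and Svs4, Smpd1 and Tshz2 show 1 FVB/NJ pool far below the other 3.

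A pair of genes of the Ly6 family, small cell surface proteins held by a lipid anchor, rose in FVB/NJ, and both lie on chromosome 15. Ly6e was at 0.07, -0.21, 0.05 and 0.09 in FVB/NJ pools, close to the reference, against -2.69, -3.15, -3.37 and -2.98 in BALB/c pools. This is an 8.27-fold difference (3.05 ± 0.15; limma adjusted p = 5.19e-07), and a second element of the gene gave 18.1-fold. Psca, prostate stem cell antigen, was at 0.08, 0.07, 0.07 and 0.34 in FVB/NJ and at -1.22, -0.87, -1.69 and -0.87 in BALB/c pools (2.46-fold; limma adjusted p = 0.00162). Of its 4 elements the lowest gave 0.84 with an adjusted p of 0.0891, and the other 3 were called. In the whole list of Pate and Ly6 genes 2 of 8 rose and 0 fell (25.0% called, beside 2.44% of all named genes). With the pool number as a block 4 were called, the 2 that rose and, lower in FVB/NJ, Pate4 (-2.76) and Pate14 (-0.99; block adjusted p = 0.0418). At an unadjusted p under 0.05 there were 4, the same number that SAM called.

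Proteins secreted by the prostate moved in both directions, and 6 of 22 measured were called (27.3%, beside 2.44% of all named genes). Smgc, Clu and Rnase1 rose in FVB/NJ, Spink8, Egf and Cst3 fell, and 16 were not called. The median of the list was 0.15. Spink8, a Kazal-type inhibitor of serine proteases, had the clearest fall, with -2.36, -1.95, -2.58 and -2.16 in FVB/NJ and 1.11, 1.12, 0.94 and 1.25 in BALB/c pools. It was 10.3-fold lower in FVB/NJ (adjusted p = 1.21e-07 in limma), and the pools of each strain lay within a narrow band. Egf, the epidermal growth factor, was at -0.88, -0.96, -0.99 and -0.69 in FVB/NJ and at 0.16, 0.23, 0.61 and 0.63 in BALB/c pools, a 2.44-fold fall at an adjusted p of 0.000295. Cst3, the cysteine protease inhibitor cystatin C, differed by -0.44 with an adjusted p of 0.0444, and up to 0.127 when any pool but FVB/NJ pool 2 was left out.

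Clu, or clusterin, an extracellular chaperone, stood at 1.43, 1.14, 0.91 and 2.44 in FVB/NJ, against -0.87, -1.51, -1.32 and -0.72 in BALB/c pools. All FVB/NJ pools were above all BALB/c pools, with FVB/NJ pool 4 the highest, and the difference was 2.58 ± 0.29 (6.00-fold; limma adjusted p = 0.000563). Smgc, a mucin-like protein first known from the submandibular gland, was at 0.66, 1.31, 1.50 and 0.77 in FVB/NJ and at -1.58, -1.21, -1.37 and -1.05 in BALB/c pools (5.14-fold; limma adjusted p = 5.81e-05). Rnase1, a secreted ribonuclease, was at 0.23, 0.18, 0.07 and 0.56 in FVB/NJ and at -1.34, -1.10, -1.13 and -1.11 in BALB/c pools (2.69-fold; limma adjusted p = 9.32e-05). Other products of the gland were nearer to each other: probasin (Pbsn) differed by -0.12, the transglutaminase Tgm4 by -0.54 (with 1 of its 6 elements called, at -0.58), the spermine-binding protein Sbp by 0.47 with an adjusted p of 0.248, and Azgp1 by 0.18. With the pool number as a block Sbp was called, at an adjusted p of 0.026, but its other elements were not (0.056 and 0.0872). A dye term gave the first element an adjusted p of 0.154, and leaving out 1 pool gave 0.0775 to 0.502.

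Among 17 androgen-regulated genes only Clu and Egf, already counted above, were called, 1 in each direction (11.8%, beside 2.44% of all named genes). In 13 of the 17 the fitted difference was above 0, and the median was 0.20. Odc1, ornithine decarboxylase, the first enzyme of polyamine synthesis, was at 0.40, 0.01, 0.09 and 0.10 in FVB/NJ and at -0.20, -0.50, -0.43 and -0.21 in BALB/c pools. These pools did not overlap, yet the difference of 0.48 ± 0.12 had an adjusted p of 0.0734 in limma. One of its other 3 elements, with a difference of 0.54, was called (adjusted p = 0.0196), and the block on the pool number gave 0.0277 for the first.

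The largest called fall of all was that of H2-Ea, the alpha chain of the class II molecule E. Its pools were at -2.74, -2.12, -2.30 and -3.12 in FVB/NJ, against 1.04, 1.34, 1.01 and 1.30 in BALB/c, 13.4-fold lower in FVB/NJ (-3.74 ± 0.20; limma adjusted p = 1.09e-06). H2-Eb1, the beta chain of the same molecule, fell as well. It was at -1.70, -1.84, -1.40 and -1.95 in FVB/NJ and at 0.06, 0.10, -0.01 and 0.11 in BALB/c pools, with the BALB/c pools close to the reference (3.45-fold; limma adjusted p = 1.47e-05). H2-Q1, a class I gene of the Q region, rose instead, with 0.30, 0.41, 0.30 and 0.43 in FVB/NJ against -1.30, -0.78, -0.89 and -0.63 in BALB/c pools (2.39-fold; limma adjusted p = 0.000454). Class I genes are alike in sequence, so its element may also have bound other class I transcripts. In the list of 10 genes for antigen presentation, 1 rose, 2 fell and 7 were not called, with a median of 0.03. This is 30.0% called, beside 2.44% of all named genes. B2m, the light chain shared by class I molecules, differed by 0.26 and the immunoproteasome subunits Psmb8, Psmb9 and Psmb10 by -0.19, -0.15 and 0.24.

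The window around the start of H2-Eb1 is shown because class II promoters are known to share a Y box, whose core is CCAAT on one strand or the other. It covers 250 bases before and 50 after the start in RefSeq, build GRCm38.p6, plus strand, chr17:34305617-34305916. The sequence is that of C57BL/6J, neither of the strains compared. Capitals mark CCAAT, on either strand:
H2-Eb1: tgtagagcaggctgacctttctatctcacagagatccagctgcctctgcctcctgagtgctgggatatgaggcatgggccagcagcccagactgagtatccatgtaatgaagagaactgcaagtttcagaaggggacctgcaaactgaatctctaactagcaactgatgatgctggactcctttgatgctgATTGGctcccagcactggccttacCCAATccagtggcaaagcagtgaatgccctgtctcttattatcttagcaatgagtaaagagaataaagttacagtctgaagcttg
The letters ATTGG begin 59 bases before the start and CCAAT 35 bases before it. One or the other is found in 37.9% of 27025 such windows of mouse genes, so the match is common.

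Several seminal vesicle proteins had lower means in FVB/NJ, and the FVB/NJ pools lay far apart in most of these. Of 12 genes in that list (secretions of the vesicle and related genes), Svs4 and Svs6 fell in FVB/NJ, Clu rose and 9 were not called. This is 25.0% called, beside 2.44% of all named genes. At an unadjusted p under 0.05 there were 7, and 7 were called with the pool number as a block. Svs4 was at -1.29, -3.72, -1.06 and -2.06 in FVB/NJ, against 1.34, 1.24, 0.79 and 1.58 in BALB/c pools, with pool 2 lowest in FVB/NJ (9.64-fold lower; limma adjusted p = 0.00232). Svs6 was at -1.52, -1.92, -1.70 and -1.58 in FVB/NJ, against -0.20, -0.04, -0.84 and 0.57 in BALB/c pools (2.93-fold lower; limma adjusted p = 0.00375). Neither call held with all 20 arrays in 1 fit (adjusted p = 0.0864 for Svs4 and 0.463 for Svs6) or with ordinary t-statistics (0.0893 and 0.0953). The genes follow each other on chromosome 2 among the genes tested.

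Svs2, a main protein of the plug, had the largest difference of any named gene by the element that stands for each, and was not called. It was at 0.12, -6.84, -0.36 and -1.26 in FVB/NJ, against 2.56, 1.64, 1.39 and 1.73 in BALB/c pools. No FVB/NJ pool reached a BALB/c pool, but FVB/NJ pool 2 lay more than 5 below the others, and the difference of -3.91 had an SE of 1.20 and an adjusted p of 0.15 in limma. Its other 4 elements gave differences between -4.0 and -3.29, and 1 of them was called (adjusted p = 0.0241). Without FVB/NJ pool 2 the difference was smaller, -2.33, and the adjusted p was 0.0042. Svs2 was not called when any other pool was left out (adjusted p up to 0.294). With the pool number as a block the adjusted p was 0.0446, and with a dye term 0.0776.

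Svs5 and Pate4 followed the same course. Svs5 was at -0.05, -4.88, -0.18 and -0.82 in FVB/NJ and at 2.11, 1.71, 1.23 and 1.94 in BALB/c pools (adjusted p = 0.0875, and 0.000909 without FVB/NJ pool 2). Pate4, a secreted protein of the vesicle also known as Svs7, was at 0.15, -3.89, -0.13 and -0.98 in FVB/NJ and at 2.30, 1.48, 1.02 and 1.41 in BALB/c pools (adjusted p = 0.0779, and 0.0115 without FVB/NJ pool 2). With the pool number as a block both were called, at adjusted p of 0.0293 and 0.0211. Smaller differences without a call were found for Svs1 (-0.12), Svs3b (-0.26) and Sva (-0.30). Over the 9 markers of seminal vesicle the mean ratio was -0.36, -2.47, -0.41 and -0.92 in FVB/NJ pools 1 to 4, and 0.93, 0.62, 0.27 and 0.84 in BALB/c pools 1 to 4. The part of seminal vesicle tissue in these pools was not tested.

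**Figure D3:**
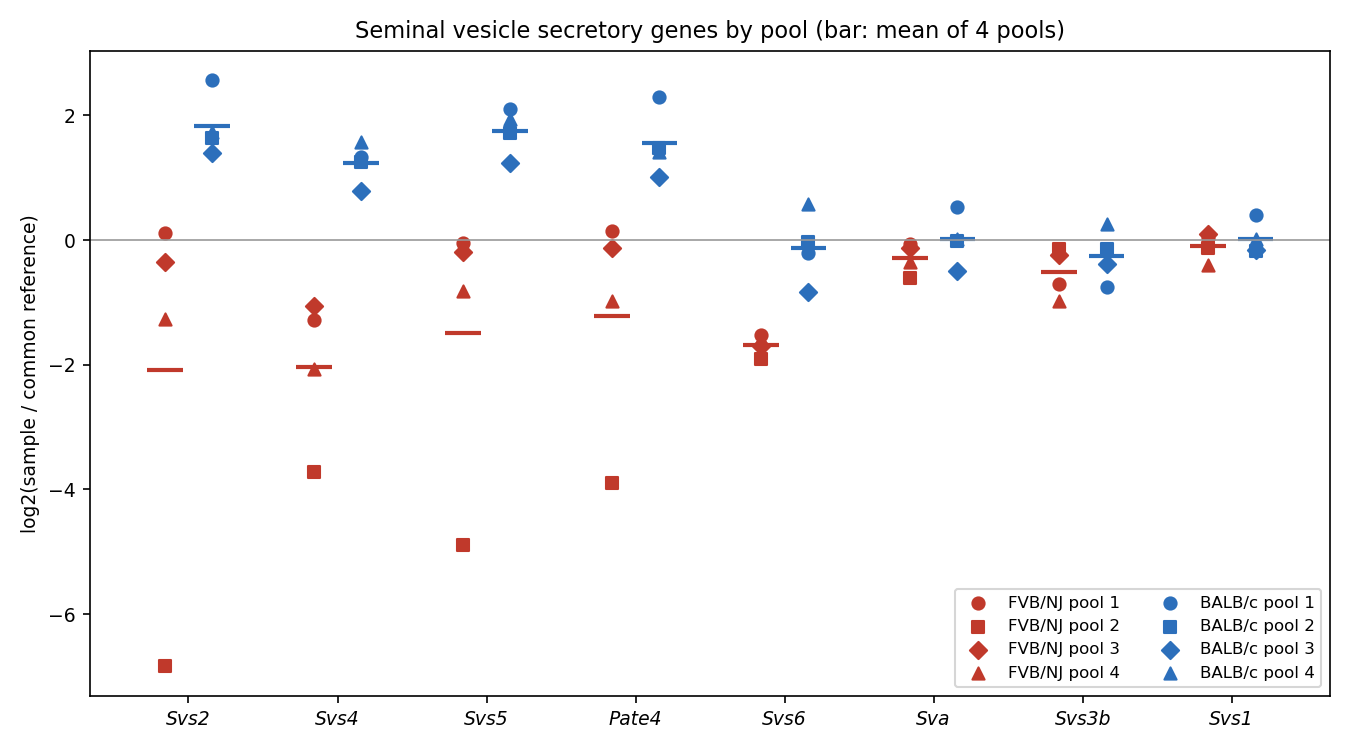
Each point is the log2 ratio over the common reference of 1 pool, with FVB/NJ in red on the left of each pair and BALB/c in blue on the right, and marker shapes for the pool numbers; bars are means of 4 pools. For Svs2, Svs4, Svs5 and Pate4 the square of FVB/NJ pool 2 lies far below the others, for Svs6 all FVB/NJ pools are low, and for Sva, Svs3b and Svs1 the strains overlap.

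Promoter windows of Svs4, Svs5 and Svs6 are shown since these genes lie close together on chromosome 2 and had lower means in FVB/NJ than in BALB/c, although Svs5 was not called. They too are RefSeq windows of C57BL/6J sequence from 250 bases before to 50 bases after the start, build GRCm38.p6: Svs4 at chr2:164278258-164278557 on the minus strand, Svs5 at chr2:164332515-164332814 and Svs6 at chr2:164316501-164316800 on the plus strand. Capitals mark TATAAA or its reverse complement TTTATA, the TATA box letters, and AGAACA or its reverse complement TGTTCT, the half-site letters of steroid receptors such as that of androgen:
Svs4: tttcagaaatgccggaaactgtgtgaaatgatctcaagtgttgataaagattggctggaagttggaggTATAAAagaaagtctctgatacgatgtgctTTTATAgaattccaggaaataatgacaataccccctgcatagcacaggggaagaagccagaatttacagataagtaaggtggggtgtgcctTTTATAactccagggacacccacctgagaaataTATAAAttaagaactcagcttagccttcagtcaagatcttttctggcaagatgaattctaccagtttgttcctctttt
Svs5: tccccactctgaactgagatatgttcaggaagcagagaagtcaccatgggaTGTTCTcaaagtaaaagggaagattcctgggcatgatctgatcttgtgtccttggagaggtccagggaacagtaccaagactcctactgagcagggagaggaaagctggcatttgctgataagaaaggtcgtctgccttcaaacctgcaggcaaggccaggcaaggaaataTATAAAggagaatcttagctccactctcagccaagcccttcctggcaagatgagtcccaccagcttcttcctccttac
Svs6: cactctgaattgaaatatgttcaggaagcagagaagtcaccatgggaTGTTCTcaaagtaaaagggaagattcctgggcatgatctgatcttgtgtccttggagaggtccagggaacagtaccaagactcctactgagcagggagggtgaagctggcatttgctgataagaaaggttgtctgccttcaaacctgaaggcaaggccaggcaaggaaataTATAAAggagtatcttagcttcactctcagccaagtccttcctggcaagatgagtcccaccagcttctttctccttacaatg
TATAAA begins 28, 28 and 32 bases before the start of Svs4, Svs5 and Svs6, and TATAAA or TTTATA is found in 14.2% of 27025 windows. TGTTCT is found once in the windows of Svs5 and Svs6, 199 and 203 bases before the start, and AGAACA or TGTTCT in 19.0% of all windows. The windows of Svs5 and Svs6 are 96.3% identical over 296 bases when shifted by 4 bases. The 2 genes are close relatives and an element of one may bind the transcript of the other, so their values are uncertain one by one.

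The elements of Smpd1, the lysosomal acid sphingomyelinase, and Tshz2, a zinc finger protein, fell together with these genes. Smpd1 was at -0.31, -3.89, -0.24 and -0.87 in FVB/NJ and at 2.25, 1.61, 1.19 and 1.93 in BALB/c pools (adjusted p = 0.0344, and up to 0.096 without FVB/NJ pool 4 or any 1 of the BALB/c pools). Its element, number 8773, stands next to that of Svs5, number 8774, in the order of the table. Tshz2 was at -0.41, -3.60, -0.29 and -1.20 in FVB/NJ and at 1.98, 1.65, 1.44 and 1.60 in BALB/c pools (adjusted p = 0.0158, and 0.0506 without BALB/c pool 2). Its other 2 elements gave 0.09 and -0.03, with no call, so the fall belongs to 1 element and not to the gene as measured by all. Whether the place of an element or other sequence on it plays a part was not tested.

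Other genes with large rises in FVB/NJ came from many kinds of protein. Adam11, a surface protein of the ADAM family without protease activity, was at 0.63, 1.28, 1.20 and 0.58 in FVB/NJ, against -1.78, -1.72, -0.94 and -1.60 in BALB/c pools (5.39-fold; limma adjusted p = 9.32e-05). It was the only called gene among 21 metalloproteinases and their inhibitors (4.76%, beside 2.44% of all named genes). In that list Mmp7, matrilysin, was at -1.43, -0.74, -1.41 and -0.71 in FVB/NJ and at -0.70, -0.22, 0.05 and -0.22 in BALB/c pools, with an adjusted p of 0.0803 that became 0.0262 with the pool number as a block. Arl2bp, which binds the small GTPase Arl2, was at 0.17, 0.27, 0.05 and 0.10 in FVB/NJ and at -1.82, -1.92, -1.52 and -1.87 in BALB/c pools, a 3.82-fold difference (limma adjusted p = 3.25e-06). Chm, the Rab escort protein, was 2.87-fold higher, Cbs, cystathionine beta-synthase, 2.82-fold, and Rgs2, a regulator of G protein signalling, 2.53-fold. Also higher were 9530003J23Rik at 3.08-fold, Rnf225 at 3.04-fold and the long non-coding RNA Snhg11 at 2.40-fold. Grhl2, a transcription factor of epithelia, rose 2.43-fold by 1 element, whereas its other 2 elements gave -0.09 and 0.02 and were not called.

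Large falls in FVB/NJ were as varied. Slc12a2, the sodium, potassium and chloride cotransporter, was at -0.61, -1.02, -1.74 and -1.13 in FVB/NJ and at 0.20, 0.36, 0.71 and 0.97 in BALB/c pools (3.21-fold; limma adjusted p = 0.00174). Col6a3, a chain of collagen VI, was at -1.27, -1.27, -0.77 and -1.15 in FVB/NJ and at 0.83, 0.42, 0.11 and 0.62 in BALB/c pools (3.05-fold; limma adjusted p = 0.000271), while the other collagen VI gene measured, Col6a1, differed by -0.05. Uba7, the enzyme that activates the ubiquitin-like protein Isg15, fell 3.07-fold by 1 element and by 0.30 on the log2 scale, not called, by the other. Its called element moved with Svs4 in other strains. In C57BL/6J pools it was at -1.38, 1.25, 0.41 and -1.91, and Svs4 at -3.12, 1.38, 0.73 and -3.60. In 129X1/SvJ pools it was at -0.74, 0.94, -1.37 and -1.10, and Svs4 at -0.78, 1.10, -1.97 and -2.16. Why the element moved with Svs4 was not tested. Odr4 fell 3.11-fold by 1 element, with 1.38-fold and no call by another (adjusted p = 0.0587). Also lower were Emb, or embigin, 2.60-fold, the transport protein Ift81 2.58-fold, the carboxylesterase Ces1e 2.56-fold, Tcte3 2.47-fold, and Adgre5, the adhesion receptor CD97, and D3Ertd751e 2.37-fold each. Sec22b, a SNARE protein of transport between endoplasmic reticulum and Golgi, fell 2.50-fold by 1 element, whereas the others gave -0.01 and 0.42. Of the 142 called genes 47 had more than 1 element tested: in 18 every element was called in the same direction, in 24 more all pointed the same way, and in 5 (Casp9, G3bp2, Grhl2, Sec22b and Tshz2) an element pointed the other way. Only 5 of the 18 rested on elements of more than 1 accession, so that in the others the elements may be repeated spots of 1 clone.

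Cytokines, growth factors and their receptors gave 4 called genes of 81 (4.94%, beside 2.44% of all named genes), 1 higher and 3 lower in FVB/NJ, with a median of 0.06. The 1 that rose was Il18, a cytokine of the interleukin 1 family, at 0.44, 1.28, 0.33 and 0.72 in FVB/NJ and at -1.0, -0.78, -1.03 and -0.84 in BALB/c pools (3.04-fold; limma adjusted p = 0.000589). Il1r2, the decoy receptor of interleukin 1, was at -1.0, -0.70, -0.63 and -1.55 in FVB/NJ and at 0.56, 0.48, 0.53 and 0.50 in BALB/c pools, where the 4 values were almost alike (2.81-fold lower; limma adjusted p = 0.000695). The chemokine Ccl8 was 1.73-fold lower in FVB/NJ (adjusted p = 0.0121, and 0.051 without BALB/c pool 2), and Egf was given above. Solute carriers gave 4 falls and 0 rises in 76 (5.26%, beside 2.44% of all named genes), with 8 at an unadjusted p under 0.05 and 5 called by SAM. Apart from Slc12a2 these were the metal ion transporter Slc39a8 (1.93-fold; limma adjusted p = 0.0338, and up to 0.107 without FVB/NJ pool 1 or 3 or BALB/c pool 3 or 4), the peroxisomal carrier Slc25a17 (1.86-fold; limma adjusted p = 0.00209) and the monocarboxylate transporter Slc5a8 (1.45-fold; limma adjusted p = 0.0396, and up to 0.132 when any pool but FVB/NJ pool 1 was left out).

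Of 50 genes of the endoplasmic reticulum and secretory pathway 0 rose and 2 fell (4.0%, beside 2.44% of all named genes). The 2 were Sec22b, by 1 element only as given above, and Sec11c, a catalytic subunit of the signal peptidase. Sec11c was 1.95-fold lower (limma adjusted p = 0.0158, and up to 0.0563 without FVB/NJ pool 1 or 4). Of 50 cytosolic ribosomal protein genes 1 rose (2.0%, near the share of all named genes), Rpl26, by 1.54-fold (adjusted p = 0.0321, and up to 0.0994 when any pool but FVB/NJ pool 1 or BALB/c pool 2 was left out). Protease inhibitors gave 3 called of 24 (12.5%, beside 2.44% of all named genes), namely Spink8 and Cst3, lower in FVB/NJ, and Tfpi, the tissue factor pathway inhibitor, 1.87-fold higher (limma adjusted p = 0.00148). In complement and acute-phase proteins Clu alone of 10 was called (10.0%, beside 2.44% of all named genes). By the element that stands for each gene, limma called 0 of 24 lipid genes (4 at an unadjusted p under 0.05, 1 by SAM). It called 0 of 55 genes of the respiratory chain (4 and 2) and 0 of 19 interferon-stimulated genes (3 and 0). These counts stand beside 2.44% of all named genes, a share at which lists of this length would hold few calls or none. A second element of Stat2, a transcription factor of the interferon response, was called (-0.51; adjusted p = 0.0473), as was an element of the lipid gene Rbp4 given below. Limma also called 0 of 43 cell cycle genes, again beside 2.44% of all named genes. Of the 43, 12 had an unadjusted p under 0.05 and 3 were called by SAM. In that list 32 of the 43 fitted differences were below 0 and the median was -0.14, beside 0.00 over all named genes; Mcm2, a subunit of the replicative helicase, was lowest at -0.58 with an adjusted p of 0.174. With the pool number as a block 3 cell cycle genes were called, all lower in FVB/NJ.

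Markers of the cell types that a prostate sample can hold were set beside these results. Limma called 0 of 10 luminal, 0 of 4 basal, 0 of 11 smooth muscle, 0 of 6 endothelial, 0 of 5 B cell, 0 of 3 T cell and 0 of 7 nerve markers. The share over all named genes was 2.44%, at which lists this short would hold few calls or none. At an unadjusted p under 0.05 there were 1 luminal and 1 basal marker and none in the other 5 lists, and SAM called none of these. The reference was made from the samples themselves, so ratios to it cannot show whether the tissue is prostate. The mean of the luminal list was between -0.09 and 0.07 in FVB/NJ pools and between -0.09 and 0.06 in BALB/c pools. In other lists single genes were called. Upk1b, of 2 urothelium markers (-0.60), and Col6a3, of 24 fibroblast markers, were lower in FVB/NJ. So were the lysozyme Lyz2, of 8 macrophage markers (-0.93), and Car3, of 7 adipose markers (-0.90). The actin Acta1, of 13 skeletal muscle markers, was higher (0.77). In the same order these calls are 50.0%, 4.17%, 12.5%, 14.3% and 7.69% of their lists, beside 2.44% of all named genes. The call of Upk1b did not hold when any pool but FVB/NJ pool 4 was left out (adjusted p up to 0.115), nor that of Lyz2 without FVB/NJ pool 1 or 2 or BALB/c pool 2 or 4 (up to 0.0705). With all 20 arrays in 1 fit Upk1b, Car3 and Acta1 had adjusted p of 0.0712, 0.105 and 0.0682. The means of the adipose list ran from -0.22 to -0.16 in FVB/NJ and from 0.04 to 0.17 in BALB/c pools. Those of the basal list ran from 0.03 to 0.18 in FVB/NJ and from -0.26 to -0.05 in BALB/c pools. In both lists the strains did not overlap. The same was true of several other lists, among them seminal vesicle markers, cell cycle genes and androgen-regulated genes, so it is not particular to these cell types. The haemoglobin gene Hbb-b1 differed by 0.83 with an adjusted p of 0.0917, and 0.0122 with the pool number as a block. The part of these cell types in the results was not tested.

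Called genes were spread over the genome. Over the autosomes and the X chromosome the share called ran from 0.935% on chromosome 13 to 5.86% on chromosome 17, where 14 of 239 genes were called, 6 higher and 8 lower in FVB/NJ. Chromosome 3 followed with 16 of 318 (5.03%). The order of genes in GRCm38.p6 put 8 pairs of called genes next to each other among those tested, 5 of them with the same direction. These were Mgst1 with Pik3c2g, Cyp2b9 with Cyp2b10, Svs4 with Svs6, Egf with Pla2g12a, and Pla2g12a with Casp6. The last 3 genes form a run on chromosome 3 in which Pla2g12a, a secreted phospholipase, differed by -0.78 and Casp6, an executioner caspase, by -0.84.

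The other 3 strains show where each difference stands, as a description without a test. Of the 142 called genes, FVB/NJ lay apart from all 16 arrays of the other 4 strains in 25, above them in 7 and below them in 18, and BALB/c in 21, above in 10 and below in 11. In 96 genes neither did. The FVB/NJ and BALB/c pools overlap in none of the 142, which favours such counts. They were not made over all 5820 named genes, so whether they are unusual is not known. FVB/NJ lay below all other arrays for H2-Eb1 and D3Ertd751e. For H2-Eb1 the other strains averaged 0.29 ± 0.25 in C57BL/6J, 0.22 ± 0.26 in 129X1/SvJ and 0.17 ± 0.26 in DBA/2 (SD, n = 4 each). FVB/NJ also lay below all other arrays for Sec22b by 1 element, whereas the other elements of that gene differed by -0.01 and 0.42. It lay above all other arrays for Rnf225, Tfpi and Adh1, though the C57BL/6J mean of Adh1, 0.12, was nearer to FVB/NJ than to BALB/c. BALB/c lay below all other arrays for Ly6e, Arl2bp, Cbs and Rgs2, though the DBA/2 mean of Cbs, -0.43, was nearer to BALB/c than to FVB/NJ. For Ly6e the others averaged 0.05 ± 0.31 in C57BL/6J, 0.04 ± 0.32 in 129X1/SvJ and 0.92 ± 0.24 in DBA/2.

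Mgst1 split the strains differently: 129X1/SvJ stood at 0.85 ± 0.25, near FVB/NJ, and C57BL/6J at -2.11 ± 0.50 and DBA/2 at -1.60 ± 0.11, nearer to BALB/c. Pik3c2g, Adam11 and Il18 showed the same split. H2-Ea was high in DBA/2 as in BALB/c (1.19 ± 0.40), and low in C57BL/6J (-3.56 ± 0.46) and 129X1/SvJ (-3.27 ± 0.31). Clu was at -0.76 ± 1.21 in C57BL/6J, -0.91 ± 0.27 in 129X1/SvJ and -1.23 ± 0.41 in DBA/2. By this element C57BL/6J pool 3 was at 0.99, within the range of FVB/NJ. The other element of Clu did not show this: C57BL/6J averaged -1.17 ± 0.30 by it, beside 1.35 ± 0.61 in FVB/NJ. Svs2 was lower still in the other strains, at -4.78 ± 2.48 in C57BL/6J, -5.39 ± 2.95 in 129X1/SvJ and -5.74 ± 1.55 in DBA/2, so that the FVB/NJ mean stood between BALB/c and the other 3 strains. Svs5 had the same arrangement, with means of -3.52 in C57BL/6J, -3.60 in 129X1/SvJ and -4.92 in DBA/2. Spink8 was at -0.43 ± 0.14 in C57BL/6J, -1.91 ± 0.56 in 129X1/SvJ and 0.71 ± 0.10 in DBA/2.

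**Figure D4:**
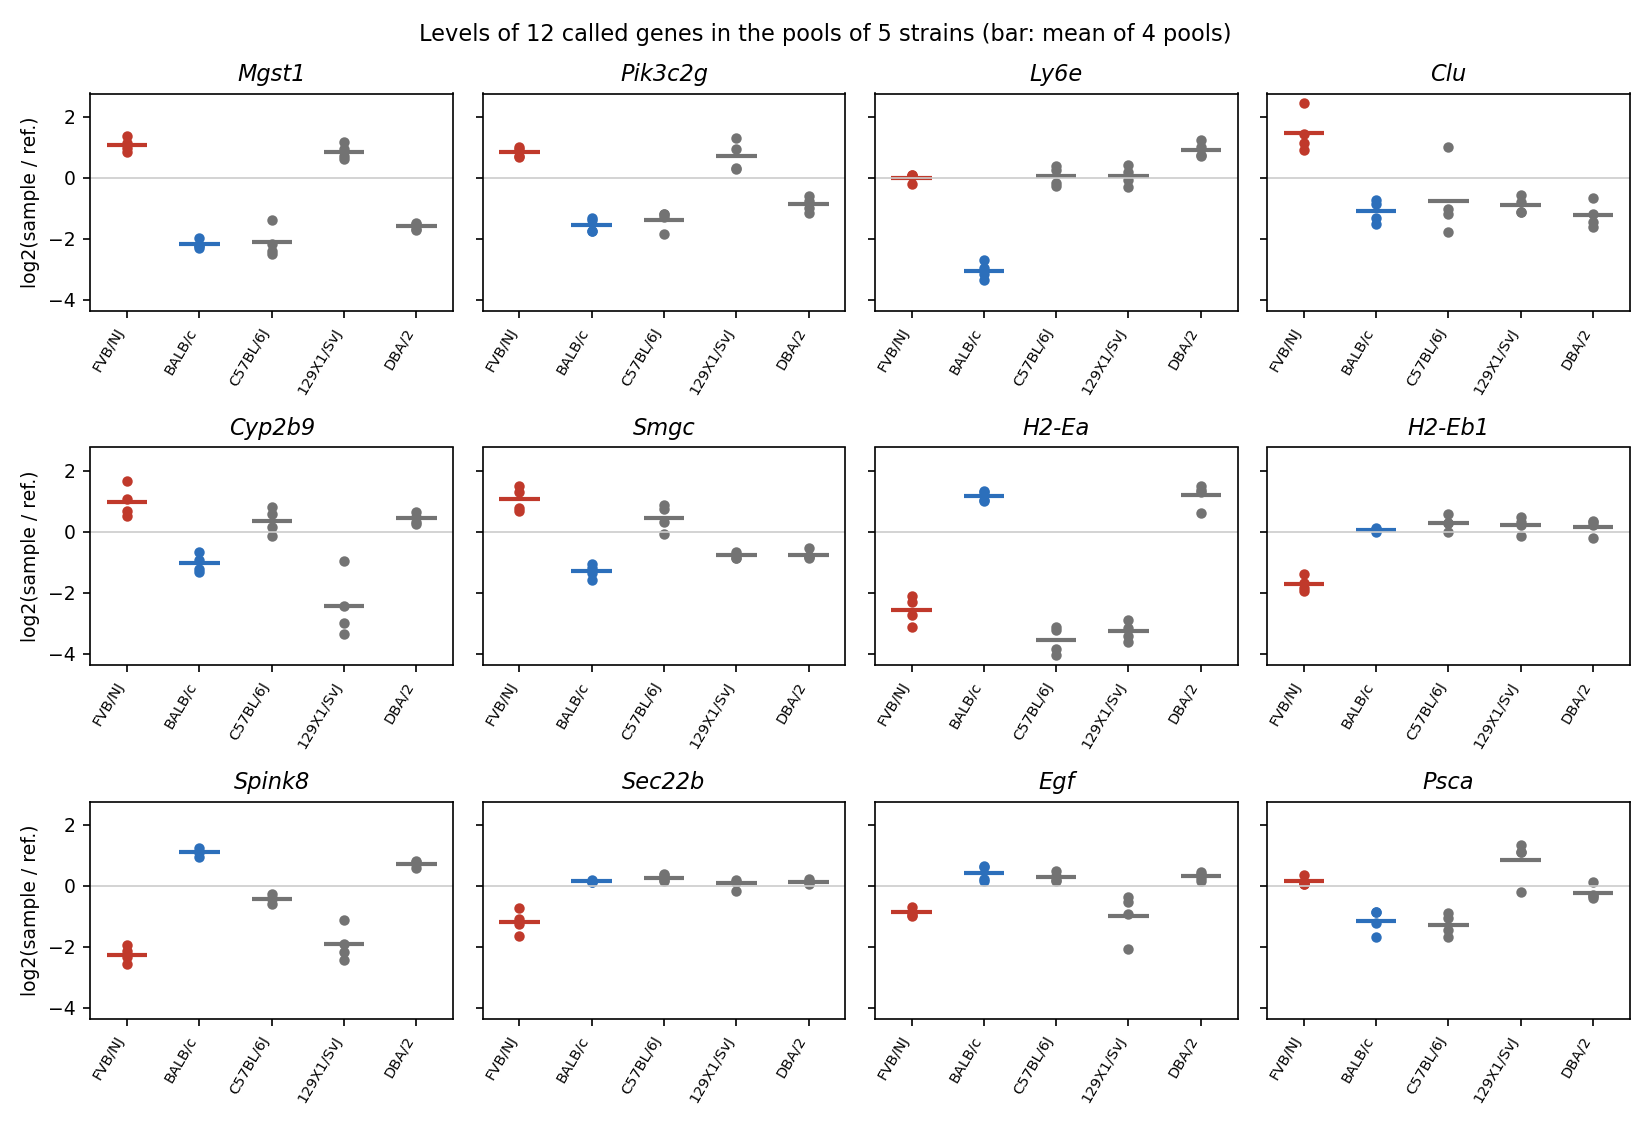
Each panel shows 1 gene with the log2 ratio over the common reference of 4 pools per strain, FVB/NJ in red, BALB/c in blue and the other strains in grey, and bars for the strain means. Mgst1 and Pik3c2g are high in FVB/NJ and 129X1/SvJ, and the BALB/c pools lie below all others for Ly6e. The FVB/NJ pools lie below all others for H2-Eb1 and, by the element shown, for Sec22b.

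The size of the differences was also taken within the Cy3 arrays and within the Cy5 arrays, each with 2 pools per strain. Since the pools of the 142 called genes do not overlap, their sign is fixed in each dye and says nothing of the dye. The size differed between the dyes by a median of 0.20 and by 0.90 at most. For Mgst1 the difference was 3.17 with Cy3 and 3.35 with Cy5, for H2-Ea -4.10 and -3.38, and for Svs4 -3.13 and -3.41. Svs2, not called, had -2.72 with Cy3 and -5.11 with Cy5, the dye that FVB/NJ pool 2 carried.

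**Figure D5:**
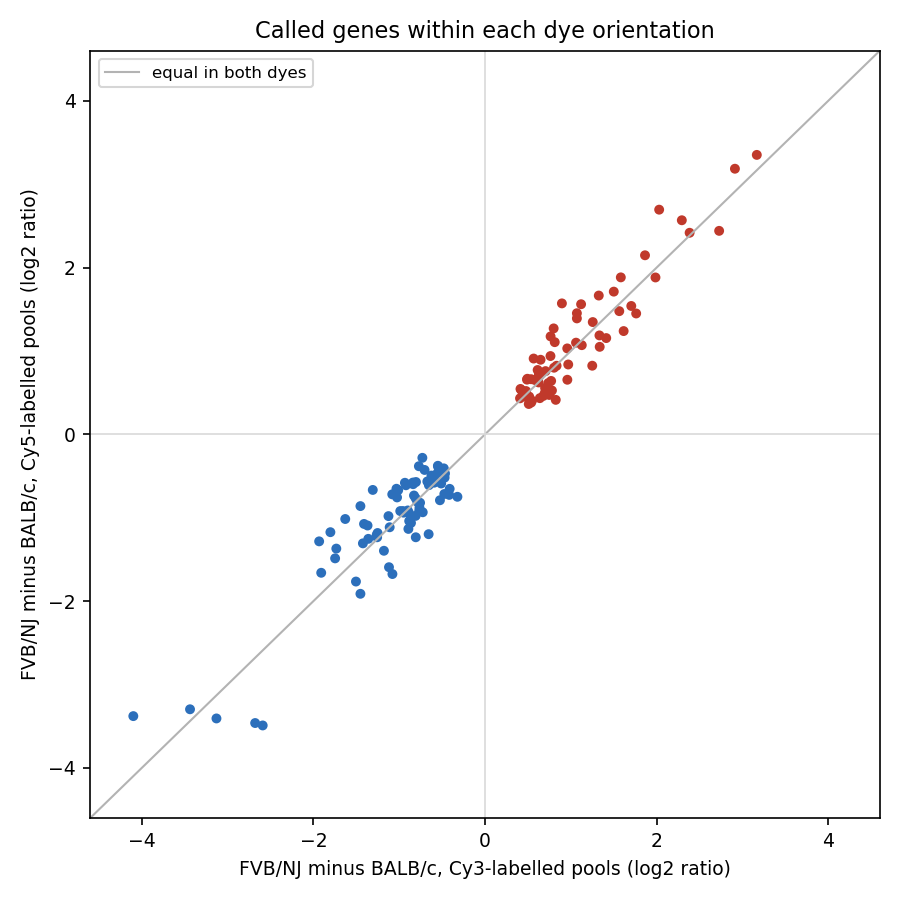
Each point is 1 of the 142 called genes, with its FVB/NJ minus BALB/c difference in log2 ratio on the Cy3 arrays (horizontal) and on the Cy5 arrays (vertical), red where higher and blue where lower in FVB/NJ; the grey line marks equal differences. The sign is the same on both axes by the lack of overlap of the pools, and the largest gap in size between the dyes is 0.90.

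Of 19 genes that the study's text names and that have an element of their own, 6 were called here by the element that stands for each. These were Mgst1, Clu, Psca and H2-Q1, higher in FVB/NJ, and H2-Ea and Egf, lower. The others ran from -3.91 for Svs2 to 0.48 for Odc1. Cap1, an actin regulator, differed by -0.03 ± 0.09, and Pttg1, securin, by 0.17 ± 0.15 (SE). Svs2 and Odc1, not called by that element, each had another element that was called, as given above. For a further pair of genes the size of the difference changed with the element. Esr1, the estrogen receptor alpha, gave 0.00 by the first element and 0.66 and 0.70 by others that were called (adjusted p = 0.0373 and 0.0395). Rbp4, the retinol carrier, gave -0.05 by the first element and -0.75 by a called one (adjusted p = 0.00286).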

How the data were processed

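Per the labels and the methods, the authors subtracted the median local background from each spot and took log2 of the sample to reference ratio, which print-tip loess then normalized within arrays. These deposited log2 ratios were used as given. Intensities were not used here, so the removal of spots of low abundance that the methods describe was not repeated. Elements with at most 3 missing values over 20 arrays and at least 2 values per strain were tested (11159; 393 left out). Names came from the platform's annotation, for elements with 1 symbol (8050); gene identifiers of 7880 elements matched GRCm38.p6. Where a gene had several elements, the most complete one was used. FVB/NJ minus BALB/c was fitted with limma 3.58.1 (R 4.3.3) on the 8 arrays, without further terms, and adjusted over all elements. Standard errors (SE) of differences come from limma's moderated variances.

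Named genes were the 20 largest called differences each way without overlap of pools, genes of the study's text and up to 5 members per list (82 genes); Svs5, Pate4 and a few other members given by value, genes beside called neighbours and the 5 genes with discordant elements were named after their values were seen. Members and lists (18 of gene groups, 14 of markers) were chosen with earlier results of these data known. Pools were separate groups of mice. The pool numbers of both strains go with the dye. Same-numbered pools deviated together (correlations 0.22 to 0.44), but so did pools of the same dye and other numbers (0.20 to 0.37). Pool number and dye thus cannot be told apart in full, and a pairing of the samples by number is not shown. The block on the pool number is given as an alternative only. Alternatives were filters, scalings, a dye term, 1 dye alone, the pool number as a block, averaging by gene, other variance estimates, all 20 arrays, SAM and leaving out each pool. The tests were tested on simulated data.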

Additional observations from a re-analysis of the deposited data

Results flagged for a closer look

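In 12 of 164 groups of 4 pools of the named genes (7.32%) 1 pool stood far from the other 3, its gap to the nearest being nearly the whole range of the group (Dixon's test); chance alone gives about 1 in 20. Ly6e was at -0.21 in FVB/NJ pool 2, against 0.05 to 0.09 in the other FVB/NJ pools. Cbs was at 0.32 in FVB/NJ pool 4 (others 0.54 to 0.57) and Snhg11 at -1.29 in the same pool (others -0.83 to -0.74). Psca was at 0.34 in FVB/NJ pool 4, above 0.07 to 0.08 in the others. Emb stood out in both strains, at -0.90 in FVB/NJ pool 3 (others -0.30 to -0.28) and at 1.48 in BALB/c pool 2 (others 0.67 to 0.80). Adh1 did so too, at 0.74 in FVB/NJ pool 2 (others 0.34 to 0.40) and at -0.53 in BALB/c pool 3 (others -0.22 to -0.17). Rnase1 was at -1.34 in BALB/c pool 1 (others -1.13 to -1.10), and Ces1e at 0.65 in BALB/c pool 2 (others 0.47 to 0.50). Genes that were not called gave 2 more: Ms4a1 was at 0.30 in FVB/NJ pool 1 (others 0.06 to 0.08), and Gap43, a gene of growing nerve fibres, at 1.53 in FVB/NJ pool 2 (others -0.14 to 0.09).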

How the results depend on the processing

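The 269 called elements (127 higher and 142 lower in FVB/NJ) became 430 (206 and 224) with a dye term, 423 (201 and 222) with the pool number as a replicate block and 443 (212 and 231) with SAM; 269, 265 and 269 of the 269 were among them. They became 163 with Cy3 arrays alone (64 higher), 131 with Cy5 arrays alone (66 higher, 65 lower), each with 2 pools per strain, and 166 with ordinary t-statistics (79 lower). Leaving out 1 pool gave 184 to 238 (90 to 110 higher, 94 to 128 lower), and 227 without FVB/NJ pool 2, of which 208 were shared. The other alternatives stayed within 1.5 times. Of the 57 named genes that were called, 30 stayed called in all 22 fits run for single genes and 27 lost the call in at least 1, 21 of them in a fit other than 1 dye alone or ordinary t-statistics. With all 20 arrays in 1 fit 15 lost it (Acta1, Car3, Ccl8, Cyp2d9, Gclm, Odr4, Rpl26, Slc12a2, Slc5a8, Smpd1, Svs4, Svs6, Tshz2, Uba7 and Upk1b), with ordinary t-statistics 17, with Cy3 arrays alone 11 and with Cy5 arrays alone 18. Leaving out 1 pool ended 4 to 8 calls. Grhl2 (0.40), Sec22b (-0.31) and Upk1b (-0.52) lost the call when elements were averaged by gene, Smpd1 and Tshz2 with a robust prior, and Upk1b with other scalings. Of 25 named genes without a call, Esr1 turned to -0.18 with Cy5 arrays alone and ran from -0.10 to 0.18 when 1 pool was left out, and Rbp4 turned to 0.0065 with Cy3 arrays alone and ran from -0.13 to 0.067 when 1 pool was left out. The cause was not tested. Apart from the changed calls of Svs2, Svs5, Pate4, Sbp, Odc1, Mmp7 and Hbb-b1 given with the results, the block on the pool number also called Scd1, Ndufv3, Mcm2 and Stat2 among the named genes. A dye term in place of the block called Scd1, Ndufv3, Mcm2, Stat2 and Odc1 too (limma adjusted p = 0.00312, 0.0277, 0.0305, 0.0174 and 0.0185). It did not call Svs2, Sbp, Mmp7 or Hbb-b1 (0.0776, 0.154, 0.0521 and 0.052).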

Other observations

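Of the 269 called elements 62 carry no single gene symbol in the annotation used here, 26 higher and 36 lower in FVB/NJ. Their differences ran from -2.78 to 2.38, and 8 exceeded 2 in size, 2 higher and 6 lower. Next to Egf, Pla2g12a and Casp6 on chromosome 3, a second stretch of that chromosome held Slc39a8, lower in FVB/NJ, beside Bank1, an adaptor protein of B cells, higher by 0.97 (limma adjusted p = 0.0053). On chromosome 10 the called neighbours 9530003J23Rik and Lyz2 also differed in opposite directions, by 1.62 and -0.93, and so did G3bp2 (0.46) and Stbd1 (-0.56) on chromosome 5.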
